A study of Mus musculus with 22 samples.

Results

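The heat shock proteins of the cytosol and of the mitochondrial matrix, with the co-chaperones that steer them, were followed as a list of 36 genes in left ventricles of FVB mice. The list was drawn by name and not by measured values, though with earlier results of these data known. Of the 36 genes, 35 were found among the 30735 genes of the deposited tables. Hspa14 was not analysed here. Wild type (WT) mice were compared with mice that carry a transgene for valosin-containing protein (VCP TG), an ATPase that pulls ubiquitinated proteins out of complexes and membranes for degradation. All were 3 to 5 months old, and their surgery was either a sham or a narrowing of the aorta (transverse aortic constriction, TAC), which makes the ventricle pump against a higher pressure. The 2-week table holds 8 sham libraries, 4 per genotype, and 7 TAC libraries, 4 of WT and 3 of VCP TG. The 5-week table holds TAC libraries alone, 4 of WT and 3 of VCP TG. Which promoter drives the transgene was not stated in the sources used here.

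Heat shock proteins hold unfolded or damaged proteins in solution and fold them again or pass them on for degradation. HSP70 proteins bind exposed stretches of a client, J-domain proteins bring clients and start the ATPase cycle, and nucleotide exchange factors of the HSP110 and BAG families reset it. HSP90 completes the folding of kinases and receptors, the HSP60 and HSP10 ring folds proteins inside mitochondria, and small heat shock proteins hold clients without using ATP. In heart muscle the small heat shock proteins are abundant at the sarcomere, where BAG3 and HSPB8 form a complex that sends damaged filament proteins to autophagy. HSF1 is the transcription factor that turns on the inducible genes of this system by binding repeated GAA units in their promoters.

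The binding units of HSF1 can be read in the promoters of several members whose levels are described below. RefSeq windows on GRCm38.p6 reaching from 250 bases before to 50 bases after the start were available for 29 of the 36 genes. A pair of units facing each other was searched as GAANNTTC or TTCNNGAA, each of which reads the same on both strands and can overlap the other by 1 unit. Such a pair was present in 14 of the 29 members with a window (48.3%) and in 17.0% of all 27025 genes with a window. A run of 3 units in alternating direction, spaced by 2 bases, was present in 4 members, Hsph1, Hspd1, Hspe1 and Dnajb6 (13.8%), and in 0.662% of all genes. The run in Hsph1 begins 15 or 36 bases after the start, depending on the RefSeq start taken, and is not in the stretch shown for it. Hspd1 and Dnaja1 have further RefSeq starts, whose windows held no match. The following stretches lie upstream of a RefSeq start of the gene, run 5′ to 3′ on its strand, and show the matched pairs in capitals.
Hspa1a, chr17:34972241-34972272, minus strand: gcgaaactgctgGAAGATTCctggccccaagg
Hspa1b, chr17:34959323-34959354, minus strand: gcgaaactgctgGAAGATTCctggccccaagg
Hsph1, chr5:149636350-149636381, minus strand: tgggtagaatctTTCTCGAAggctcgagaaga
Dnaja1, chr4:40722332-40722363, plus strand: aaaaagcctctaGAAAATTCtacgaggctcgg
Hspb1, chr5:135887790-135887841, plus strand: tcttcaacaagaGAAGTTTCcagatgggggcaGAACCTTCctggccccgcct
Hspd1, chr1:55088047-55088088, minus strand: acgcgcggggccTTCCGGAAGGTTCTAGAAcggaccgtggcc
Hspe1, chr1:55088047-55088088, plus strand: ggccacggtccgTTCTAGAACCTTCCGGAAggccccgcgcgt
The stretches of Hspa1a and Hspa1b are identical, and those of Hspd1 and Hspe1 are the opposite strands of the same bases. A match describes letters in the window and is not a measured binding site.

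The tissue label was checked with 8 ventricular cardiomyocyte genes, all of which reached 1 TPM in every library and summed to 17165 to 36815 TPM. Summed atrial markers stood at 10637 and 1732 TPM in VCP TG sham replicates 3 and 4, at 9617 TPM in replicate 1 of the libraries labelled WT 2 weeks TAC and at 4090 TPM in VCP TG 2 weeks TAC replicate 2, against 19.9 to 569 TPM in the other 18. Mitochondrially encoded genes took 27.9% to 72.9% of TPM, with the highest share in VCP TG sham replicate 4. Vcp transcript, which checks the genotype labels, overlapped between genotypes in sham (45.7 to 82.6 TPM in WT, 73.5 to 186 in VCP TG) and at 5 weeks TAC (47.7 to 123 in WT, 39.1 to 118 in VCP TG). At 2 weeks TAC it stood at 47.7 to 119 TPM in WT and 125 to 151 in VCP TG, where the 119 belongs to replicate 1 of the libraries labelled WT. Directions between genotypes below therefore follow the labels, and no member was called without 5 libraries set apart for their Vcp level from earlier results (VCP TG sham 1, WT 2 weeks TAC 1, WT 5 weeks TAC 2 and 3, VCP TG 5 weeks TAC 3). Of these, VCP TG sham 1 had 89.1 TPM, above every WT sham library, and the VCP TG sham library within the WT range was replicate 4. With replicate 4 left out in place of replicate 1, a choice made after seeing the data, 1 member was called, Bag3 in WT hearts under 2 weeks of TAC (limma adjusted p = 0.0433). In these bulk samples, fewer cells of a type and less RNA per cell cannot be told apart.

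The 35 genes together took 2633 to 5849 TPM of a library. Small heat shock proteins stood highest: αB-crystallin (Cryab) had a mean of 764 TPM over the 22 libraries, Hspb7 604 and Hspb6 602. The constitutive HSP70 of the cytosol, Hspa8, followed with 484 TPM and the constitutive HSP90, Hsp90ab1, with 389. At the low end stood the inducible HSP70 gene Hspa1a with 4.94 TPM and Hspa2 with 2.70. In TPM as deposited the members varied within groups about as much as other genes. Their median within-group SD was 0.39 on the log2 scale of TPM + 1 against 0.38 over 16347 genes. With TPM rescaled to nuclear protein-coding genes the members varied less, at 0.31 against 0.37 over the same genes. The spreads that follow are of TPM as deposited. By the median ratio of the highest to the lowest library of a group, Hspa1a and Hspa1b varied most, at 4.67 and 4.32. That ratio was 1.70 for Hspb8. By within-group SD Hspb8 came first at 1.48, with a lowest library at 0.333 TPM, ahead of Hspa1b at 1.31 and Hspa1a at 1.19. Trap1 varied least, with a within-group SD of 0.20. Members with a pair of HSF1 units in the window had a median within-group SD of 0.45 (14 genes) and those without 0.34 (14 genes), while over all genes the medians were 0.37 and 0.36. For the run of 3 units the order was the other way, 0.34 in the 4 members with it and 0.40 in the 24 without.

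**Figure D1:**
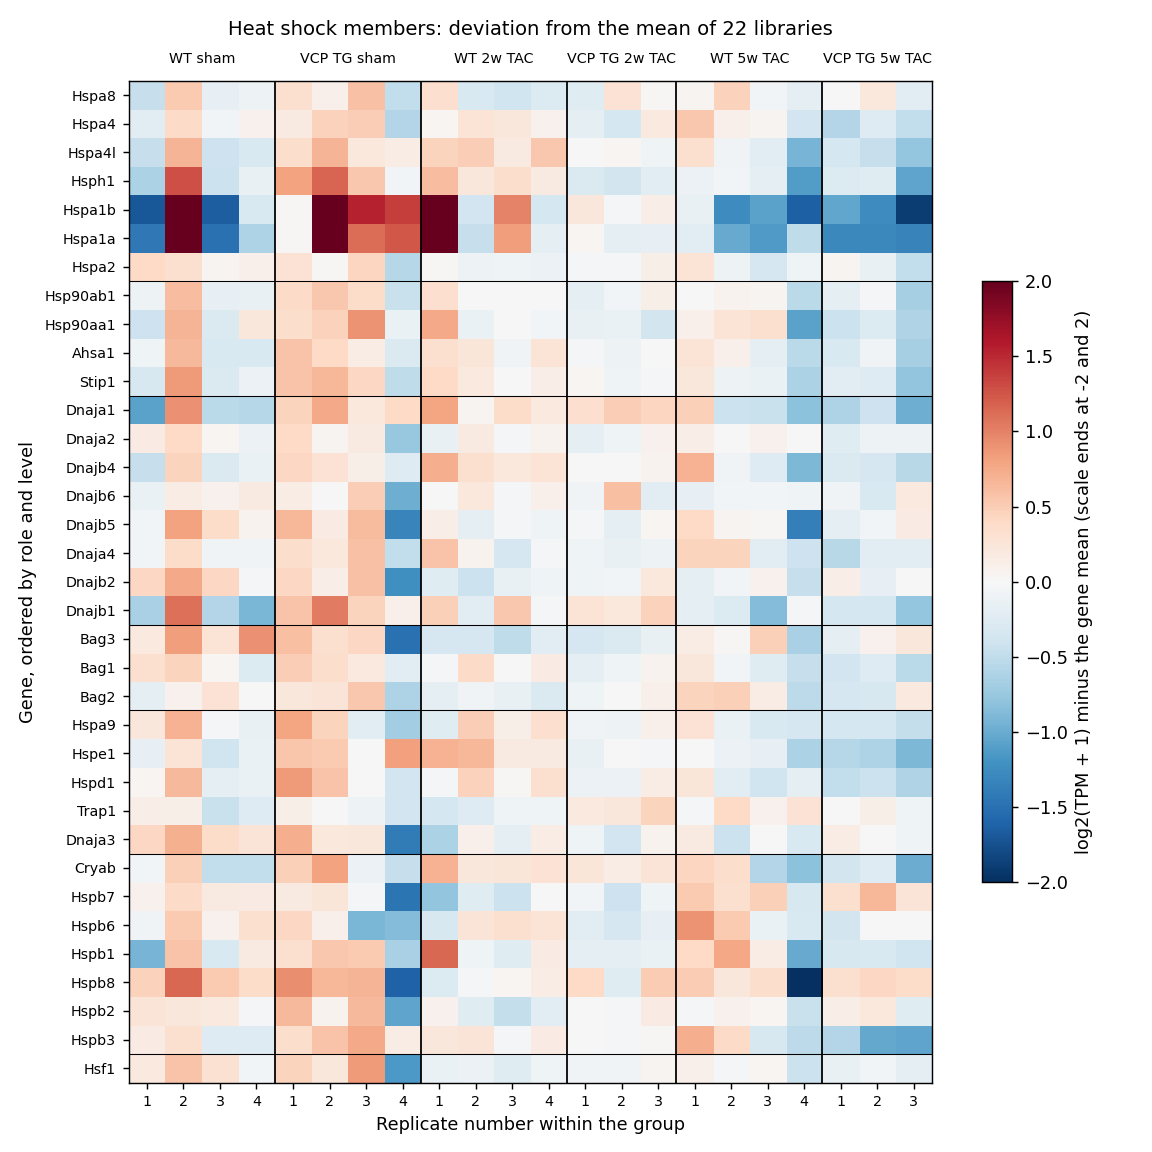
Each square is log2(TPM + 1) of 1 gene in 1 library minus that gene's mean over the 22 libraries (red above, blue below), with libraries in columns by group and genes in rows by role. WT sham replicate 2 is red in most rows, VCP TG sham replicate 4 and WT 5 weeks TAC replicate 4 are blue in most rows, and Hspa1a and Hspa1b span the whole scale.

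Some libraries stood apart across the list, which bears on every comparison below. WT sham replicate 2 had the highest value of its group in 29 of the 35 members, against 44.8% of all genes. VCP TG sham replicate 4 had the lowest value in 30, against 73.1% of all genes, and WT 5 weeks TAC replicate 4 had the lowest in 27, against 42.9%. After TPM was rescaled to nuclear protein-coding genes, WT sham replicate 2 was highest in 19 members (22.2% of all genes) and WT 5 weeks TAC replicate 4 lowest in 24 (22.9%). VCP TG sham replicate 4 was then lowest in only 15 of 35 members, against 47% of all genes. On that scale VCP TG 2 weeks TAC replicate 1 was lowest in 34 of 35 members (58.3% of all genes). Immediate early genes, a gauge of handling, summed to 599 TPM in WT sham replicate 2 and to 117 to 368 in the other WT sham libraries. They summed to 402 TPM in WT 5 weeks TAC replicate 4, within the 164 to 799 of the other WT libraries of that time. Their part in the results was not tested.

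**Figure D2:**
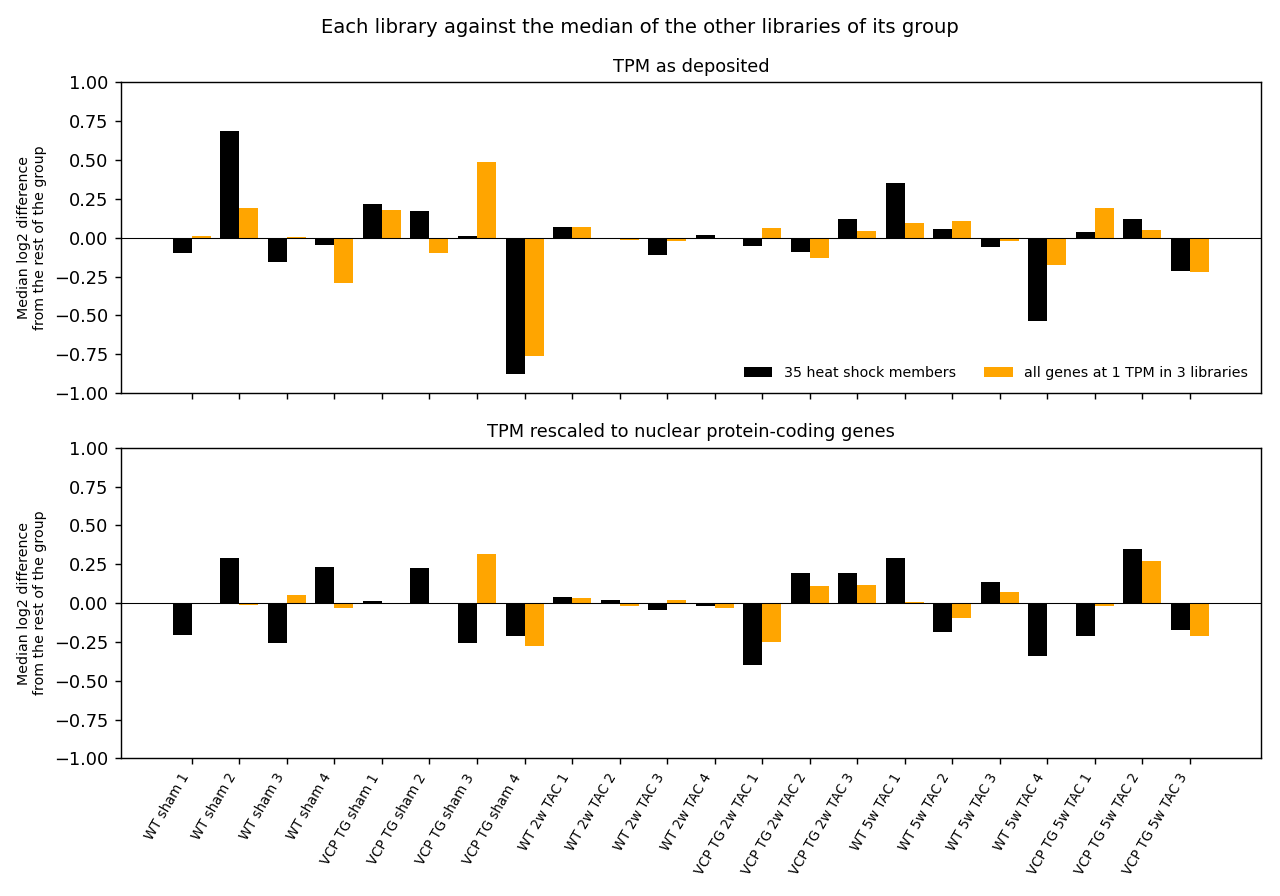
Bars give, for each library, the median log2 difference from the median of the other libraries of its group, over 35 heat shock members (black) and all genes (orange), for TPM as deposited (top) and rescaled to nuclear protein-coding genes (bottom). In WT sham replicate 2 the members stand 0.68 above the rest of the group and all genes 0.19, and in WT 5 weeks TAC replicate 4 the members stand at -0.54 and all genes at -0.18.

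The inducible HSP70 genes Hspa1a and Hspa1b lie 9951 bases apart on chromosome 17, and 63.8% of the 31-base words of the Hspa1a transcript occur in that of Hspa1b, so their reads can be split between them and their separate values are uncertain. In sham hearts Hspa1a stood at 0.313, 20.5, 0.267 and 1.31 TPM in WT and at 2.61, 15.9, 6.70 and 7.43 TPM in VCP TG. At 2 weeks TAC it stood at 31.5, 1.59, 5.31 and 2.14 TPM in WT and 2.66, 2.13 and 2.18 in VCP TG. By 5 weeks TAC it was at 2.05, 0.764, 0.628 and 1.51 TPM in WT and 0.449, 0.447 and 0.405 in VCP TG. A single WT library at each of sham and 2 weeks TAC was thus far above the rest, and the VCP TG libraries at 5 weeks were all below the WT ones. Hspa1a was not among the genes tested at 5 weeks, since only 2 of those libraries reached 1 TPM. Hspa1b had the same pattern, with 1.39, 63.2, 1.48 and 5.31 TPM in WT sham and 6.93, 32.3, 21.7 and 19.3 in VCP TG sham. After 2 weeks of TAC the values of Hspa1b were 73.7, 4.97, 14.4 and 5.09 TPM in WT and 8.12, 6.53 and 7.48 in VCP TG. At 5 weeks they were 5.98, 2.26, 2.71 and 1.50 TPM in WT and 2.77, 2.24 and 1.09 in VCP TG, and the groups overlapped.

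Hspa8, the constitutive HSP70, was measured at 342, 677, 421 and 441 TPM in WT sham and 593, 505, 707 and 337 in VCP TG sham. Its 2-week TAC values were 599, 384, 358 and 389 TPM in WT and 399, 577 and 479 in VCP TG, and its 5-week values 491, 649, 457 and 419 and 476, 545 and 404. Within each comparison the groups overlapped for Hspa8. Hsph1, an HSP110 nucleotide exchange factor for HSP70, stood at 7.96, 32.9, 9.35 and 11.5 TPM in WT sham and 23.2, 30.0, 19.3 and 12.3 in VCP TG sham. With 2 weeks of TAC it was at 20.2, 15.2, 16.7 and 14.7 TPM in WT and 10.4, 9.78 and 10.8 in VCP TG, with every VCP TG library below every WT one. At 5 weeks Hsph1 was at 11.8, 12.3, 11.3 and 5.37 TPM in WT and 10.5, 10.8 and 5.71 in VCP TG, where the groups overlapped. Its relative Hspa4l had 10.7, 24.8, 11.1 and 12.1 TPM in WT sham, 19.6, 24.9, 17.7 and 16.8 in VCP TG sham, 21.0, 21.7, 17.3 and 22.4 in WT TAC and 15.3, 15.6 and 14.2 in VCP TG TAC at 2 weeks. At 5 weeks Hspa4l was at 19.1, 14.5, 12.8 and 7.48 TPM in WT and 11.7, 10.7 and 8.41 in VCP TG. The VCP TG TAC libraries at 2 weeks lay below all 4 WT TAC and all 4 VCP TG sham libraries. Hspa2, a further HSP70, stood at 3.83, 3.54, 2.78 and 2.90 TPM in WT sham and 2.72, 2.41, 2.45 and 2.35 in WT 2 weeks TAC, which just do not overlap. In VCP TG it was at 3.48, 2.70, 3.93 and 1.47 TPM in sham and 2.58, 2.60 and 2.94 at 2 weeks TAC, and at 5 weeks at 3.39, 2.39, 1.90 and 2.43 TPM in WT and 2.79, 2.27 and 1.59 in VCP TG. Hspa4, the remaining HSP110-type exchange factor, lay between 22.6 and 50.3 TPM over all libraries.

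Of the HSP90 genes, the inducible Hsp90aa1 had 45.7, 98.7, 50.0 and 72.1 TPM in WT sham and 78.5, 84.5, 115 and 55.9 in VCP TG sham. The 2-week TAC libraries gave 104, 56.0, 60.8 and 59.4 TPM in WT and 55.3, 55.9 and 47.1 in VCP TG, and the 5-week libraries 65.9, 74.4, 77.0 and 28.8 and 45.5, 50.5 and 40.0. VCP TG libraries at 2 weeks TAC lay below those of VCP TG sham and below those of WT TAC, in each case by under 1 TPM. Hsp90ab1 had 354, 586, 338 and 342 TPM in WT sham and 498, 554, 493 and 280.4 in VCP TG sham. At 2 weeks TAC Hsp90ab1 was at 483, 382, 381 and 379 TPM in WT and 332, 365 and 414 in VCP TG, and at 5 weeks at 382, 397, 397 and 261 and 334, 372 and 241. Its groups overlapped in each comparison. The HSP90 co-chaperones Ahsa1, which speeds its ATPase, and Stip1, which links HSP70 to HSP90, ranged from 27.8 to 70.5 and from 18.8 to 60.5 TPM over all libraries.

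Among J-domain proteins, the inducible HSP40 gene Dnajb1 stood at 3.65, 14.6, 3.84 and 2.87 TPM in WT sham and 9.76, 14.0, 8.88 and 6.81 in VCP TG sham. It was at 9.17, 5.27, 9.56 and 6.13 TPM in WT and 7.83, 7.41 and 9.04 in VCP TG after 2 weeks of TAC, and at 5.41, 5.02, 3.00 and 6.15 and 4.71, 4.74 and 3.27 after 5 weeks. Replicates 1, 3 and 4 of WT sham thus lay below every other library of the 2-week table. Dnaja1, a partner of HSP70 in protein import and folding, had 20.0, 81.8, 29.4 and 28.5 TPM in WT sham and 59.1, 73.1, 50.2 and 57.0 in VCP TG sham. With TAC it had 74.8, 44.7, 55.6 and 49.1 TPM in WT and 54.6, 60.9 and 58.4 in VCP TG at 2 weeks, and 60.3, 31.7, 31.3 and 23.8 and 27.6, 32.2 and 21.3 at 5 weeks. Again the same 3 WT sham libraries were the lowest of the 2-week table. Dnajb2, which hands ubiquitinated clients to the proteasome, showed another order, with 34.9, 44.6, 34.8 and 25.4 TPM in WT sham and 21.9, 19.0, 23.4 and 24.4 in WT TAC at 2 weeks, without overlap. In VCP TG it was at 35.1, 28.7, 39.4 and 10.6 TPM in sham and 24.6, 24.9 and 30.2 at 2 weeks TAC, and at 5 weeks at 22.9, 25.0, 27.6 and 18.7 TPM in WT and 28.7, 23.1 and 25.7 in VCP TG. Dnajb4 had 29.2, 55.5, 32.8 and 36.8 TPM in WT sham, 54.1, 49.7, 43.7 and 33.5 in VCP TG sham and, at 2 weeks of TAC, 67.5, 50.7, 46.9 and 49.1 in WT and 40.4, 40.2 and 42.7 in VCP TG. After 5 weeks of TAC Dnajb4 was at 66.1, 38.2, 33.7 and 21.3 TPM in WT and 32.7, 32.0 and 27.2 in VCP TG. Only at 2 weeks TAC did the genotypes of Dnajb4 not overlap, with VCP TG lower. Dnaja2 was at 46.7, 42.3, 44.7 and 42.7 TPM in WT 5 weeks TAC and 35.7, 39.2 and 39.3 in VCP TG, without overlap. Its 2-week values were 47.4, 56.3, 43.3 and 39.1 TPM in WT sham, 56.1, 43.8, 47.8 and 24.5 in VCP TG sham, 38.2, 48.1, 41.0 and 44.3 in WT TAC and 36.9, 39.6 and 44.9 in VCP TG TAC. The other J-domain members, Dnaja4, Dnajb5 and Dnajb6, ranged from 10.8 to 52.5 TPM.

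**Figure D3:**
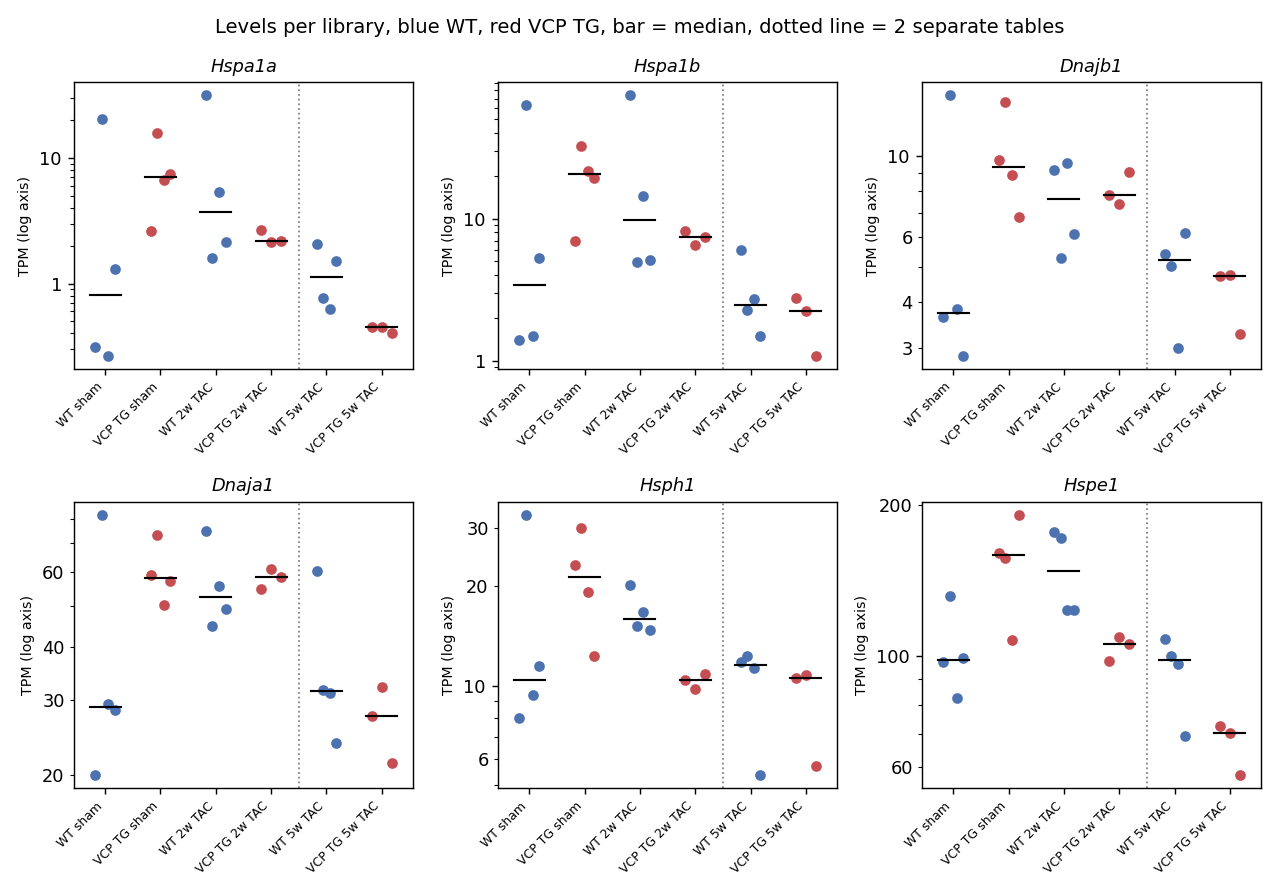
Points are TPM of 1 library each on a log axis for Hspa1a, Hspa1b, Dnajb1, Dnaja1, Hsph1 and Hspe1 in the 6 groups (blue WT, red VCP TG), with the median as a bar and a dotted line between the 2-week and 5-week tables. In each of the 6 panels WT sham replicate 2 is above the other 3 WT sham libraries, which lie below all 4 VCP TG sham libraries.

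In the BAG family, Bag3, the partner of HSPB8 in filament turnover, stood at 86.5, 135, 91.7 and 143 TPM in WT sham and 60.1, 59.8, 52.9 and 64.3 in WT 2 weeks TAC. The highest WT TAC library was below the lowest WT sham library by more than 20 TPM. In VCP TG hearts Bag3 was at 116, 94.9, 102 and 26.3 TPM in sham and 59.8, 61.9 and 68.6 at 2 weeks TAC, and only the low sham replicate 4 kept these groups from separating. At 5 weeks TAC it was at 84.5, 76.8, 105 and 48.1 TPM in WT and 66.6, 80.6 and 88.4 in VCP TG, with overlap. Bag1 and Bag2 ranged from 49.2 to 102 and from 6.39 to 15.5 TPM over all libraries.

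For the small heat shock proteins, Hspb8 stood at 112, 182, 118 and 105 TPM in WT sham and 67.4, 80.3, 83.6 and 90.4 in WT 2 weeks TAC, without overlap. Its VCP TG values were 155, 130.0, 131 and 25.8 TPM in sham and 107, 68.9 and 115 at 2 weeks TAC. At 5 weeks TAC Hspb8 was at 116, 95.4, 104 and 0.333 TPM in WT and 102, 109 and 105 in VCP TG. The 0.333 TPM of WT 5 weeks TAC replicate 4 stands against 25.8 to 182 TPM in the other 21 libraries. In that library 15 genes lay under 1 TPM that were at 10 TPM or more in all 21 others, of 2420 genes at that level in the others, and no other library had such a gene. Of these, 10 were pseudogenes and 5 protein-coding, among them Ddx3y of the Y chromosome at 0.192 TPM, against 11.1 to 21.3 in the other libraries. The pseudogenes Rpl35a-ps2, Rpl35a-ps3, Rpl35a-ps4, Rpl35a-ps6 and Gm10243 shared 1 value there, 0.103 TPM, and 1 range elsewhere, 13.4 to 29.9. The 15 may therefore not be separate observations.

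Hspb7, a small heat shock protein of heart and muscle, had 614, 752, 657 and 647 TPM in WT sham and 333, 489, 431 and 578 in WT 2 weeks TAC, again without overlap. In VCP TG it had 655, 682, 571 and 209.6 TPM in sham and 555, 432 and 547 at 2 weeks TAC, and at 5 weeks 828, 719, 804 and 460.3 TPM in WT and 725, 917 and 692 in VCP TG. Cryab and Hspb2, which share 1030 bases of their gene spans on opposite strands of chromosome 9, differ in level, with 8.76 to 30.6 TPM for Hspb2 over all libraries. Reads of shared bases can be told apart only where strand is used. Cryab, which guards desmin and titin, stood at 695, 1010, 513 and 516 TPM in WT sham and 1008, 1259, 667 and 525 in VCP TG sham. Under TAC Cryab had 1173, 848, 856 and 881 TPM in WT and 859, 799 and 868 in VCP TG at 2 weeks, and 980.2, 928, 484 and 409 and 560.4, 604 and 362 at 5 weeks. Its groups overlapped in each comparison. Hspb6 was at 549, 825, 612 and 719 TPM in WT sham and 768, 616, 304 and 316 in VCP TG sham. Its TAC values were 460.5, 689, 718 and 695 TPM in WT and 493, 457 and 514 in VCP TG at 2 weeks, and 1079, 827, 526 and 466 and 445, 577 and 579.7 at 5 weeks. Hspb1 (HSP27), which binds actin, had 81.1, 229.9, 125 and 175 TPM in WT sham and 194, 226, 222 and 98.8 in VCP TG sham. At 2 weeks TAC Hspb1 was at 346, 146, 130.1 and 174 TPM in WT and 135, 135 and 140.4 in VCP TG, and at 5 weeks at 204, 264, 171 and 76.1 and 124, 126 and 117. Hspb3 was low throughout, with 6.87, 7.72, 4.85 and 4.88 TPM in WT sham, 7.94, 9.38, 10.8 and 6.77 in VCP TG sham, 7.16, 7.39, 5.82 and 6.89 in WT TAC and 6.07, 5.79 and 6.14 in VCP TG TAC at 2 weeks. At 5 weeks Hspb3 stood at 10.6, 8.10, 4.63 and 3.87 TPM in WT and 3.68, 2.46 and 2.39 in VCP TG, and every VCP TG library was below every WT one.

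**Figure D4:**
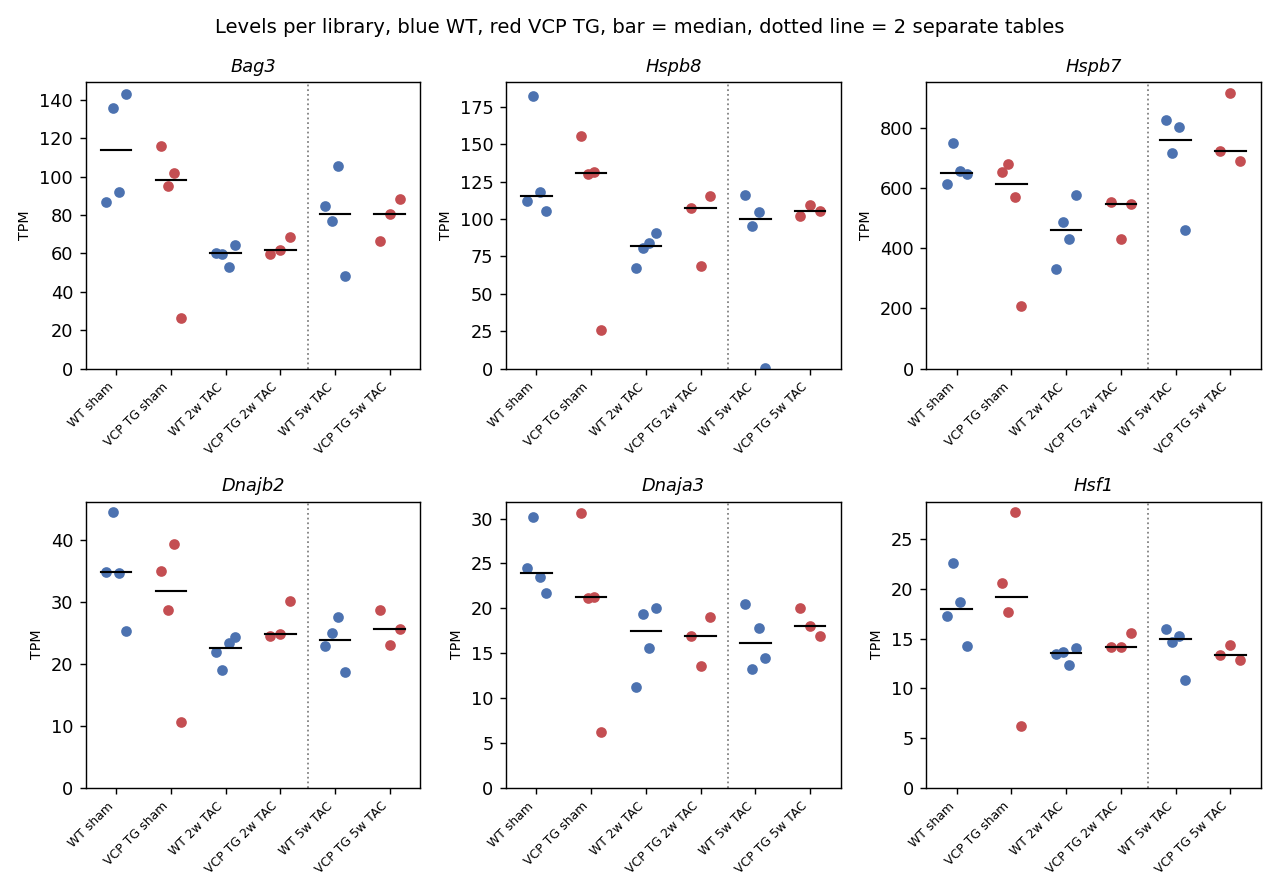
Points are TPM of 1 library each for Bag3, Hspb8, Hspb7, Dnajb2, Dnaja3 and Hsf1 in the 6 groups (blue WT, red VCP TG), with the median as a bar, axes from 0, and a dotted line between the 2-week and 5-week tables. All 4 WT 2 weeks TAC points lie below all 4 WT sham points in each panel, and the lowest VCP TG sham point in each panel is replicate 4.

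Of the mitochondrial chaperones, Hspd1 (HSP60) and Hspe1 (HSP10) start head to head on chromosome 1, with gene spans that share 112 bases. Hspd1 stood at 60.9, 93.6, 51.6 and 54.1 TPM in WT sham and 108, 88.9, 59.6 and 45.2 in VCP TG sham. At 2 weeks TAC Hspd1 was at 57.6, 81.8, 60.7 and 74.1 TPM in WT and 54.9, 54.6 and 65.7 in VCP TG, and at 5 weeks at 70.3, 50.6, 44.7 and 51.7 and 42.1, 43.9 and 39.0, where the genotypes did not overlap. Hspe1 had 97.3, 132, 82.4 and 99.2 TPM in WT sham and 161, 157, 108 and 192 in VCP TG sham. With TAC Hspe1 had 177, 172, 124 and 124 TPM in WT and 97.6, 109 and 106 in VCP TG at 2 weeks, and 108, 100.2, 96.3 and 69.4 and 72.7, 70.1 and 58.0 at 5 weeks. VCP TG sham replicate 4, lowest of its group in 30 members, had the highest Hspe1 of all 22 libraries and the lowest Hspd1 of its group. Hspa9 (mortalin), the HSP70 of the matrix, was at 130.0, 179.9, 109.8 and 100.3 TPM in WT sham and 193, 152, 95.1 and 68.4 in VCP TG sham. Under TAC it was at 94.1, 156, 120.3 and 140.4 TPM in WT and 106, 103 and 119.8 in VCP TG at 2 weeks. At 5 weeks it was at 136, 101, 89.6 and 87.6 TPM in WT and 87.3, 86.9 and 79.4 in VCP TG, which just do not overlap. Trap1, the HSP90 of mitochondria, had 53.6, 52.8, 35.4 and 40.5 TPM in WT sham, 53.1, 48.2, 45.5 and 37.0 in VCP TG sham, 37.9, 40.5, 45.6 and 45.8 in WT TAC and 55.7, 57.1 and 66.5 in VCP TG TAC at 2 weeks. Its VCP TG TAC libraries at 2 weeks lay above all 12 others of that table. At 5 weeks Trap1 was at 47.3, 64.6, 51.9 and 59.7 TPM in WT and 48.3, 52.8 and 45.7 in VCP TG. Dnaja3, the J-domain partner of mortalin, had 24.5, 30.2, 23.5 and 21.7 TPM in WT sham and 11.2, 19.4, 15.6 and 20.1 in WT 2 weeks TAC, without overlap. In VCP TG Dnaja3 was at 30.7, 21.1, 21.3 and 6.21 TPM in sham and 16.9, 13.5 and 19.0 at 2 weeks TAC, and at 5 weeks at 20.5, 13.2, 17.9 and 14.4 TPM in WT and 20.1, 18.1 and 16.9 in VCP TG. Hsf1 itself was at 17.2, 22.6, 18.7 and 14.3 TPM in WT sham, 20.6, 17.7, 27.7 and 6.21 in VCP TG sham, 13.5, 13.6, 12.4 and 14.1 in WT TAC and 14.2, 14.2 and 15.5 in VCP TG TAC at 2 weeks. At 5 weeks Hsf1 was at 16.0, 14.6, 15.3 and 10.8 TPM in WT and 13.4, 14.3 and 12.8 in VCP TG.

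Between genotypes in sham hearts no member passed the test, and no groups of a member were free of overlap. The background in this comparison was 0% of 15540 genes called, 0.605% without overlap and higher in VCP TG, and 0.431% without overlap and lower. At an unadjusted p under 0.05 stood 3 members, all higher in VCP TG (Dnaja1, Hspe1 and Dnajb1, chosen after their values were seen), and 616 of all genes. Their log2 differences were 0.77 ± 0.32 for Dnaja1, 0.57 ± 0.24 for Hspe1 and 0.80 ± 0.35 for Dnajb1 (limma adjusted p = 1 for each). Those of Hspa1a and Hspa1b were 1.40 ± 0.97 and 1.41 ± 1.06. These values turned on WT sham replicate 2. Without it, a choice made after seeing the data, 7 of 35 members were higher in all VCP TG sham libraries than in all 3 remaining WT ones and 0 were lower, against 1.99% and 0.817% of all genes. That library was highest of its group in 29 of 35 members, so leaving it out itself favours members higher in VCP TG. The shares of all genes do not allow for that choice. The 7 were Hspa1a, Hspa1b, Hsph1, Hspa4l, Dnaja1, Dnajb1 and Hspe1. In limma fits without that library and replicate 1 of those labelled WT 2 weeks TAC, the difference was 2.34 ± 0.42 for Hspa1a (adjusted p = 0.125), 2.48 ± 0.46 for Hspa1b (0.174) and 1.25 ± 0.28 for Dnajb1 (0.385), and again no member passed. The median difference of the members was 0.13 and that of all genes -0.01. Summed atrial markers were 44.1 to 169 TPM in WT sham and 51.7 to 10637 in VCP TG sham, and those of immediate early genes 117 to 599 and 142 to 2093. Those of red blood cell markers were 23.4 to 104 TPM and 106 to 2185, without overlap. Their part in the differences was not tested.

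In WT hearts 7 of 35 members, Bag3, Hspb8, Hspb7, Dnajb2, Dnaja3, Hsf1 and Hspa2, had all 4 libraries of 2 weeks TAC below all 4 sham libraries, and 0 members had them above. No member passed the test. The count stands beside 13.7% of all genes without overlap and lower, 2.48% without overlap and higher, and 0% called. Among these 7, Bag3 had the largest difference, -0.90 ± 0.35 (adjusted p = 0.373), from 114 ± 29.3 TPM in sham to 59.3 ± 4.73 in TAC (SD, n = 4 each). Differences were -0.65 ± 0.41 for Hspb8 (adjusted p = 0.543), -0.61 ± 0.31 for Dnajb2 (0.458) and -0.58 ± 0.34 for Dnaja3 (0.509). Those of Hspb7 and Hsf1 were -0.57 ± 0.31 (adjusted p = 0.487) and -0.40 ± 0.31 (0.627). Bag3 passed in a fit of these 8 libraries alone (adjusted p = 0.0281, where 964 of 13709 genes were called), without the libraries rich in atrial transcripts (0.0246) and without VCP TG sham replicate 4 (0.0166), and Dnajb2 passed in the last of these (0.0496). The unadjusted p was under 0.05 for 3 members, Bag3 lower and Hspe1 and Hspa4l higher, and for 1773 of all genes.

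The differences of Hspa1a and Hspa1b in WT hearts under TAC were larger than that of Bag3, with overlap, at 1.08 ± 0.97 and 1.03 ± 1.06 (adjusted p = 0.680 and 0.723). The median difference of all 35 members was 0.03 while that of all genes was -0.13, and 25 of 35 lay above the latter. WT sham replicate 2 and replicate 1 of those labelled WT 2 weeks TAC were also left out, a choice made after seeing the data. The first was highest of its group in 29 of 35 members, so leaving it out itself favours members higher in TAC. The shares of all genes do not allow for that choice. Without both, 12 members were higher in TAC without overlap and 8 lower, against 8.46% and 21.0% of all genes. The 12 were Hspa1a, Hspa4, Hspa4l, Hsph1, Hsp90ab1, Ahsa1, Stip1, Dnaja1, Dnajb1, Dnajb4, Hspe1 and Cryab, none of which was free of overlap with all libraries in. The 8 were the 7 above and Hspb2. After rescaling to nuclear protein-coding genes, 3 members were higher and 7 lower without overlap, against 4.07% and 16.0% of all genes. Macrophage markers summed to 69.4 to 122 TPM in WT sham and 93.6 to 261 in WT 2 weeks TAC, endothelial markers to 250 to 346 and 174 to 202, and immediate early genes to 117 to 599 and 100.3 to 151. Skeletal muscle markers summed to 775 to 1166 TPM and 374 to 705. Only 2 of these 7 markers, Acta1 and Ckm, reached 1 TPM in every library of both groups. Of the others, Myh1, Myh2, Myh4 and Myod1 stayed under 1 TPM throughout both groups. The part of all these marker lists in these values was not tested.

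In VCP TG hearts 2 weeks of TAC went with lower levels of Hsph1, Hsp90aa1, Hspb3 and Hspa4l and higher Trap1, and again no member passed. These 4 and 1 members did not overlap between sham and TAC, against 0.676% of all genes lower and 3.35% higher, and 0.772% of all genes were called. Hsph1 differed by -0.90 ± 0.37 (adjusted p = 0.384), from 21.2 ± 7.41 TPM in 4 sham libraries to 10.3 ± 0.534 in 3 TAC libraries. The difference was -0.61 ± 0.31 for Hsp90aa1 (adjusted p = 0.651), -0.46 ± 0.24 for Hspb3 (0.710), -0.36 ± 0.28 for Hspa4l (1.00) and 0.38 ± 0.24 for Trap1 (0.905). Larger differences, with overlap, were those of Hspa1a and Hspa1b, at -1.26 ± 0.43 and -1.16 ± 0.44 in a fit of these groups alone. There their limma adjusted p-values were 0.363 and 0.474, with 53 of 14554 genes called. That fit leaves out the WT libraries, in which both genes varied more, so these 2 standard errors do not compare with those of the joint fit. In the joint fit of the 4 groups only Hsph1 had an unadjusted p under 0.05, as did 1363 of all genes. Rescaled to nuclear protein-coding genes, 12 members were lower without overlap and 0 higher, against 9.51% and 2.97% of all genes, and Hspb3 was called at -0.79 (adjusted p = 0.0445). On that scale Trap1 overlapped, at 0.07. The scale moved the median of all genes from 0.02 to -0.25 and that of the members from -0.12 to -0.43. Without VCP TG sham replicate 4, 18 members were lower without overlap and 1 higher, against 22.7% and 3.75% of all genes. That library was lowest of its group in 30 of 35 members, so leaving it out itself favours members lower in TAC. Immediate early genes summed to 142 to 2093 TPM in VCP TG sham and 125 to 134 in VCP TG TAC, and red blood cell markers to 106 to 2185 and 85.8 to 90.6, both without overlap, and their part in these values was not tested.

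At 2 weeks TAC the genotypes differed in which members stood apart, and no member passed. In all VCP TG libraries 5 members were lower, Hsph1, Hspe1, Hspa4l, Hsp90aa1 and Dnajb4, and 3 were higher, Trap1, Hsf1 and Dnajb2. For Hsf1 and Dnajb2 the margin was thin. The lowest VCP TG library had 14.16 and 24.55 TPM, and the highest WT library 14.07 and 24.44. Over all genes 2.78% were lower and 19.0% higher without overlap, and 0.0901% were called. Hsph1 differed by -0.63 ± 0.37 (adjusted p = 0.687), with 16.7 ± 2.48 TPM over 4 WT libraries and 10.3 ± 0.534 over 3 VCP TG libraries (SD). Hspe1 differed by -0.49 ± 0.26 (adjusted p = 0.613), Hspa4l by -0.42 ± 0.28 (0.783), Hsp90aa1 by -0.36 ± 0.31 (0.934) and Dnajb4 by -0.36 ± 0.26 (0.859). Trap1 was higher by 0.49 ± 0.24 (adjusted p = 0.540). None of the 35 had an unadjusted p under 0.05, against 1488 of all genes. Rescaling changed the split: 21 members were lower and 0 higher without overlap, against 17.7% and 5.88% of all genes. On the rescaled values Hsf1 was among the lower ones, turning from 0.12 to -0.26, Dnajb2 turned from 0.25 to -0.13 with overlap, and Trap1 overlapped. With replicate 1 of the libraries labelled WT left out, 7 members were lower and 6 higher, against 4.28% and 29.1% of all genes. The mean TPM of 1659 olfactory and vomeronasal receptor genes, which left ventricle does not normally express, was 0.336 to 0.895 in the VCP TG TAC libraries and 0.124 to 0.220 in the WT ones. The mitochondrially encoded share of TPM was 40.2% to 51.6% in VCP TG and 55.5% to 60.9% in WT, also without overlap. Their part in the differences was not tested.

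**Figure D5:**
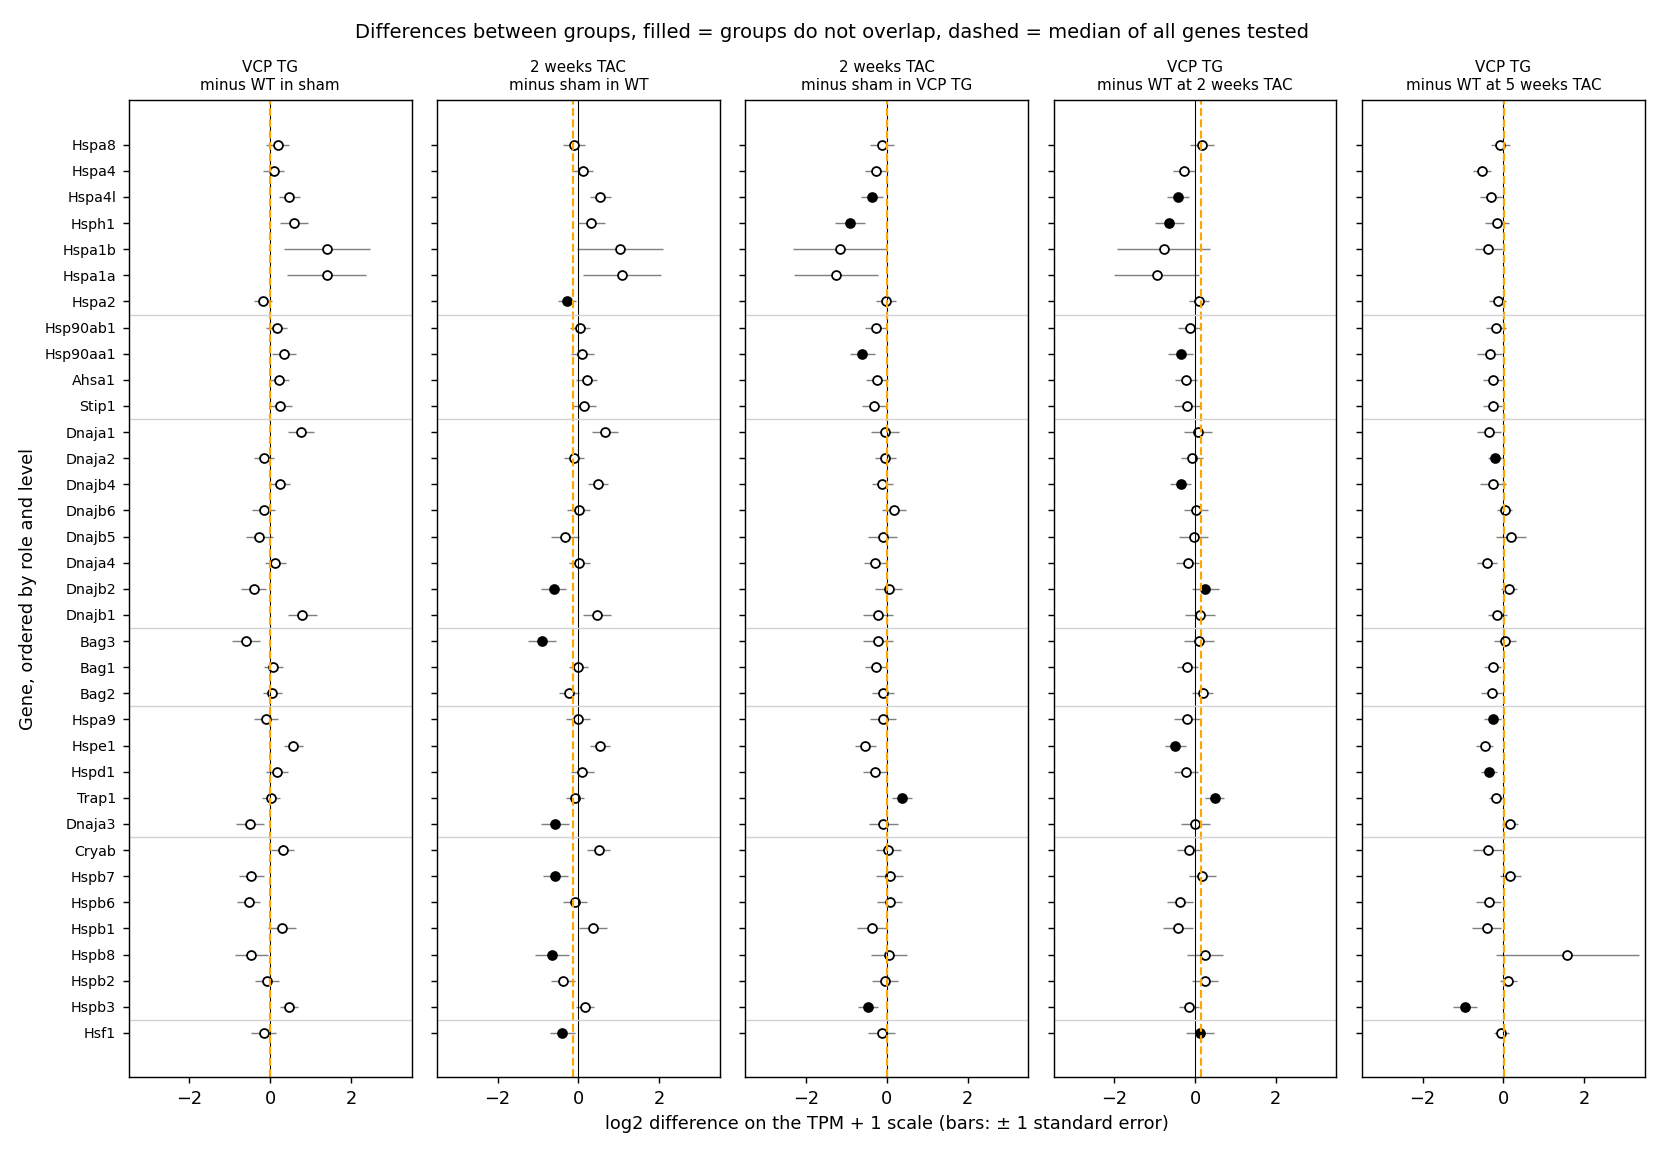
Points are log2 differences on the TPM + 1 scale for each member in 5 comparisons, with bars of 1 standard error either way. Filled points mark members whose groups do not overlap, and the dashed line is the median of all genes tested. Hspa1a and Hspa1b have the widest bars at 2 weeks and Hspb8 at 5 weeks, and the filled points are 0, 7, 5, 8 and 4 from left to right.

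The TAC responses of the genotypes at 2 weeks were compared by their difference, VCP TG minus WT. No member was called, and 0.00644% of all genes were. The unadjusted p was under 0.05 for 3 members, chosen here after their values were seen, and for 779 of all genes: -1.07 ± 0.36 for Hspe1, -1.23 ± 0.50 for Hsph1 and -0.90 ± 0.38 for Hspa4l (adjusted p = 0.872 for each). The values of Hspa1a and Hspa1b were -2.34 ± 1.43 and -2.19 ± 1.56. The median over the members was -0.30 and that over all genes 0.22. By role the medians were -0.90 for HSP70 and HSP110, -0.45 for HSP90 and its co-chaperones, and 0.16 for small heat shock proteins. They were -0.09 for mitochondrial chaperones, -0.12 for J-domain proteins and 0.13 for BAG co-chaperones. On rescaled values the first 3 were -1.26, -0.79 and -0.18 and the other 3 -0.43, -0.45 and -0.18, with -0.64 over the members and -0.02 over all genes, so that the small heat shock proteins and BAG co-chaperones turned sign. This difference shares its sham and TAC libraries with the comparisons above.

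At 5 weeks TAC the members were mostly lower in VCP TG, and none passed the test. Of 34 tested, 8 had a difference above 0, and the median was -0.26 against 0.03 over all genes. Without overlap, 4 members were lower, Hspb3, Hspd1, Hspa9 and Dnaja2, and 0 higher, against 1.74% and 3.40% of all genes, with 0.00715% called. Hspb3 differed by -0.95 ± 0.30 (adjusted p = 0.904), from 6.79 ± 3.12 TPM over 4 WT libraries to 2.84 ± 0.724 over 3 VCP TG libraries (SD). Differences were -0.36 ± 0.20 for Hspd1, -0.27 ± 0.21 for Hspa9 and -0.21 ± 0.17 for Dnaja2 (adjusted p = 0.904 for each). Rescaled values gave 3 members lower and 0 higher without overlap, against 5.43% and 1.42%. The unadjusted p was under 0.05 for 2 members, Hspb3 and Hspa4, and for 628 of all genes. All 6 macrophage markers reached 1 TPM in some library of each genotype and summed to 82.4 to 120.3 TPM in WT and 58.6 to 78.7 in VCP TG, without overlap. The mitochondrially encoded share was 53.0% to 55.6% in WT and 47.6% to 50.8% in VCP TG. Their part in the differences was not tested.

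WT 5 weeks TAC replicate 4 bore on this comparison. Without it 16 of 34 members were lower in VCP TG without overlap and 0 higher, against 7.51% and 4.52% of all genes. That library was lowest of its group in 27 of 35 members, so leaving it out itself favours members lower in VCP TG. The shares of all genes do not allow for that choice. The 16 were Hspa4, Hspa4l, Hspa9, Hsph1, Hsp90aa1, Hsp90ab1, Stip1, Hspb1, Hspb3, Hspd1, Hspe1, Dnaja2, Dnaja4, Dnajb4, Bag1 and Hsf1. The median of the members was then -0.37 and that of all genes -0.02, 8 members had an unadjusted p under 0.05, and no member was called (adjusted p = 0.723 for Hspb3, at -1.15 ± 0.28). Hspb8 moved from 1.59 ± 1.78 with that library to 0.01 ± 0.18 without it. The libraries left out here and in the counts without overlap of the other comparisons were chosen after their values were seen. The genotype difference at 5 weeks was also compared with that at 2 weeks, and no member was called, against 0.00612% of all genes. Trap1, at -0.66 ± 0.29, and Hspb3, at -0.79 ± 0.37, had an unadjusted p under 0.05, as did 323 of all genes.

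Of 75 further genes of the chaperone network, such as HSP90 co-chaperones, prefoldin and chaperonin subunits and mitochondrial proteases, 71 were tested in each comparison and none was called. In WT hearts at 2 weeks TAC 17 of them were lower without overlap and 0 higher, against 13.7% and 2.48% of all genes. Named by the same rule, these were Hspbp1 at -0.88 ± 0.35 and Unc45a, a myosin chaperone, at -0.85 ± 0.28 (adjusted p = 0.383 and 0.331), with Bag6 at -0.76 ± 0.33 and Cdc37, which brings kinases to HSP90, at -0.76 ± 0.29 (0.399 and 0.372). In VCP TG hearts 1 was lower under TAC, the HSP90 co-chaperone Chordc1 at -0.64 ± 0.32 (adjusted p = 0.608). Between genotypes at 2 weeks TAC 10 were higher and 4 lower, against 19.0% and 2.78% of all genes. Among them were Hspb11 at 0.87 ± 0.29 (adjusted p = 0.218), Clpb at 0.57 ± 0.31 (0.652), Unc45a at 0.55 ± 0.30 (0.641) and Chordc1 at -0.43 ± 0.32 (0.859). In sham 2 were higher, the prefoldin subunit Pfdn2 at 0.40 ± 0.23 and Hspb11 at 0.59 ± 0.26 (adjusted p = 1 for each). At 5 weeks TAC the prefoldin subunits Pfdn6 and Pfdn2 were lower, at -0.73 ± 0.24 and -0.34 ± 0.19, and Unc45a and Bag6 higher, at 0.47 ± 0.20 and 0.20 ± 0.17 (adjusted p = 0.904 for each). The background shares of the other comparisons are those given for the heat shock members. Rescaling to nuclear protein-coding genes changed these counts. Between genotypes at 2 weeks TAC 1 was higher and 26 lower, against 5.88% and 17.7% of all genes, and their median moved from 0.06 to -0.33. Under TAC 16 were lower and 0 higher in VCP TG, and 16 lower and 2 higher in WT. At 5 weeks 7 were lower and 0 higher. In sham 2 were lower and 0 higher, against 356 and 125 of all 15540 genes.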

How the data were processed

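RNA was extracted from left ventricle with a Qiagen miRNeasy kit and made into libraries with an Illumina TruSeq Stranded mRNA kit, per the labels' protocols. The authors deposited 1 table per time point with values in TPM, recognised by column totals of 1000000. The tools DESeq2, kallisto 0.43.1, STAR 2.5.4b and Trimmomatic 0.35 and the build GRCm38 are named without roles, per the submitters' processing notes, and whether strand was used in counting is not stated. TPM keeps no read numbers, so depth is unknown, no counting interval can be given, and a low value may rest on few reads. Because a fixed total is shared out, more of an abundant transcript means less of the rest, so TPM was also rescaled to sum to 1000000 over nuclear protein-coding genes.

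Identifiers were named with GENCODE M21 (30074 of 30735 found), and promoter windows came from RefSeq on GRCm38.p6. Limma 3.58.1 (R 4.3.3) was fitted to log2(TPM + 1), with a mean for each group, a trended prior variance and robust moderation. A gene entered a fit if 3 or more of its libraries reached 1 TPM. Each test was two-sided, p-values were adjusted by Benjamini-Hochberg across the whole fit, and the threshold was 0.05. The 2-week comparisons came from a joint fit of its 4 groups (15540 genes), the 5-week comparison from its own 2 groups (13986) and the difference between times from all 6 (16347). As each time point is its own table, levels were set side by side across times without a test. The + 1 makes differences of low genes look smaller than they are. Errors beside TPM are SD, and those beside log2 differences are standard errors. Groups were counted as not overlapping where every library of the one lay above every library of the other.

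Values in every library are given for 17 members fixed by name and for each member past the threshold or without overlap, and tests for up to 6 members per comparison with the largest difference among those without overlap. The other chaperone genes follow the same rule with up to 4 each. Members and lists were chosen with earlier results of these data known. The alternatives were other pseudocounts, filters and scalings, fits of only the groups compared, other moderation, a replicate block, libraries left out, and Hspa1a summed with Hspa1b. The test was tried on simulated data with less spread than measured here. That trial therefore cannot show which changes the test would miss in these libraries. Replicate numbers recur between groups without a stated meaning, and deviations of same-numbered libraries correlated over 0.1 in every pair only in sham (0.107 to 0.260), where the pairing thus comes from the data alone. Nothing says that libraries came from separate animals, so p-values measure only the spread between these libraries. Hspa14 was left out because its identifier was not matched.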

Additional observations from a re-analysis of the deposited data

Results flagged for a closer look

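In 16 of 140 tests of a member within a group of 4 libraries, the highest or lowest library lay further from the rest than Dixon's 95% critical value for 4 samples allows. That is 11.4%, against 8.33% over all genes and about 5% by chance, and the 16 fall in 4 libraries.

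WT sham replicate 2 was high in Hspa4l (24.79 TPM against 10.7 to 12.1 in the other 3), Hsp90ab1 (586.3 against 338 to 354), Dnaja4 (37.91 against 27.7 to 28.1) and Dnajb1 (14.59 against 2.87 to 3.84). VCP TG sham replicate 4 was low in Hspb7 (209.6 TPM against 571 to 682), Hspb8 (25.83 against 130.0 to 155) and Bag3 (26.26 against 94.9 to 116).

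Replicate 1 of the libraries labelled WT 2 weeks TAC was high in Hspa8 (599.3 TPM against 358 to 389), Hsp90aa1 (104.2 against 56.0 to 60.8), Hsp90ab1 (482.7 against 379 to 382) and Cryab (1173 against 848 to 881), and low in Hspb6 (460.5 against 689 to 718). WT 5 weeks TAC replicate 4 was low in Hsph1 (5.375 TPM against 11.3 to 12.3), Hsp90aa1 (28.77 against 65.9 to 77.0), Hsp90ab1 (261.4 against 382 to 397) and Hspb8 (0.333 against 95.4 to 116).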

How the results depend on the processing

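The count of members past the threshold, 0 in each of the 7 comparisons, changed in 5 fits. For WT hearts at 2 weeks TAC against sham it became 1 (Bag3, lower) in a fit of only the groups compared and 1 (Bag3) without the libraries rich in atrial transcripts. It became 2 (Bag3 and Dnajb2, lower) without VCP TG sham replicate 4, the library with the largest mitochondrially encoded share. It became 1 (Bag3) with VCP TG sham replicate 4 left out together with the other libraries set apart for Vcp, a choice made after seeing the data. For VCP TG hearts it became 1 (Hspb3, lower) after rescaling to nuclear protein-coding genes. Each of these settings but the rescaling leaves libraries out of the fit, and the cause of the changed counts was not tested. With the replicate number as a block the count was 0 in every comparison, and it was 0 with each library of the groups compared left out in turn (VCP TG sham replicate 4, above, enters the WT comparison through the shared spread and the genes tested). No member named by the rule turned its direction under any setting tried, but 2 others described as higher in VCP TG at 2 weeks TAC did on rescaled values, Hsf1 (0.12 to -0.26) and Dnajb2 (0.25 to -0.13). Between genotypes at 2 weeks TAC the medians of members and all genes moved from -0.14 and 0.16 to -0.54 and -0.17 on rescaled values of the same 15540 genes. Fits of only the groups compared equal those reported for the comparison at 5 weeks and for the difference of TAC responses. Depth is unknown, so values near 1 TPM, such as Hspa1a, are the least certain.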
